A study of Gallus gallus with 16 samples.

Results

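Procyanidin B1 (PB1), a plant polyphenol built from catechin units, was given to chicken HD11 cells with and without lipopolysaccharide (LPS). Of the 6492 transcripts in the table, 56 were chosen by the rule given below. These 56 differed with PB1 in the same direction in both settings. Their mean with LPS alone lay within 0.60 of the control mean on the log2 scale. For many of them this did not hold within each pair of replicates, as given below. Of the 56, 34 were higher with PB1 (called raised members here) and 22 were lower (lowered members). They were selected on the group means of all 16 libraries, by 4 conditions. Rows with a protein-coding RefSeq accession (NM_ or XM_) were divided by their column sum and multiplied by 1e+06, giving signal per 1e+06 of the library (SPM), and log2 group means were taken. A row was kept where any group mean reached 10 SPM, where LPS minus CTR lay between -0.60 and 0.60 on the log2 scale, and where PB1 minus CTR and LPS + PB1 minus LPS were both at least 0.60 or both at most -0.60. HIF1A and CCN3 also met these limits and were left out by the rule. Because all 3 differences chose the members, their levels and differences are given as a description with no test.

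LPS, an outer membrane component of Gram-negative bacteria, is sensed by Toll-like receptor signalling and switches on inflammatory transcription in macrophages. Procyanidins are polyphenols known for antioxidant and anti-inflammatory activity. The 15 members with a symbol encode proteins of several kinds, described one by one below, and no shared theme was tested.

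By the methods every library came from HD11, a macrophage-like chicken line. RNA was sequenced from 4 groups of 4 libraries each, which were untreated control (CTR, given PBS by the methods), LPS, PB1 and LPS + PB1. LPS was given at 100 ng/mL in the LPS and LPS + PB1 groups, for 6 h by the labels and 12 h by the methods. PB1 was given at 100 μg/mL, starting 12 h before LPS by the methods. For the cell experiments the study names a purchased PB1 standard, although the limits it gives for the work speak of an unpurified Cyperus esculentus extract, which it fed to chickens. A further compound, SeMC at 100 μM in the medium, stands in the protocol given with every label, and the methods give 3 replicates per group where the labels give 4. Neither source says that replicates came from separate cultures, so the spread between libraries may be technical.

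Recovered reads ranged from 4173989 to 4414942 per library. Libraries split by replicate number within groups. Replicates 1 and 2 differed from replicates 3 and 4 in mean log2 level by more than 0.60 in 5.66% of the 4008 coding rows at the level limit in CTR and in 1.95% in PB1, and in 12.3% in LPS and 16.3% in LPS + PB1. Neither source names a batch, so results that rest on this split are given below within each pair. Most of the macrophage markers listed were matched to no named row. CYBB, a subunit of the phagocyte oxidase, had 0 recovered reads in every library, which allows up to 3 reads per library. MRC1 had at most 3 reads and FCER1G at most 4. The summed signal of 9 matched fibroblast and mesenchyme markers, led by COL1A2 and VIM, ranged from 92142 to 100094 SPM in CTR and from 66619.8 to 70029.7 in PB1, and from 83771 to 102368 in LPS and 80976 to 91690.1 in LPS + PB1. These 3 macrophage markers were thus at or near 0 beside high mesenchymal markers, and they do not stand for the whole list. The identity of the cells was not tested. The mesenchymal sum was lower in PB1 than in CTR without overlap, but its markers did not go one way. The means of 6 of the 9 were lower, as in COL1A2 (42120 SPM in CTR and 16689 in PB1). VIM (22643 and 30449) and LOX (4902 and 8311) were higher without overlap, and TWIST1 was slightly higher with overlap. The part of these markers in the members' differences was not tested. The summed erythroid markers HBA1 and HBAD ranged from 0.390 to 1.80 SPM in CTR and from 0.408 to 80.4 in LPS. They ranged from 0.669 to 134 in PB1 and from 0.425 to 317 in LPS + PB1. HBAD had at most 2 reads in any library, so the high sums were those of HBA1.

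Most rows past the limits with PB1 were not members. Among the 3303 rows at the level limit with LPS minus CTR within 0.60, 255 were at least 0.60 higher with PB1 in the absence of LPS and 175 in its presence. These lists shared 35 rows, which is 13.7% of the first and 20% of the second. In the lower direction 166 and 195 rows passed, and the 23 shared rows were 13.9% and 11.8% of the lists. Each of these shares was larger than the share of the other list among all 3303 rows, so they do not show little overlap. Another 86 rows passed both limits in opposite directions, 52 of them higher without LPS and lower with it and 34 the reverse. They too were a larger part of each list than the other list was of the 3303 rows. Overlap was not tested in either case.

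**Figure D1:**
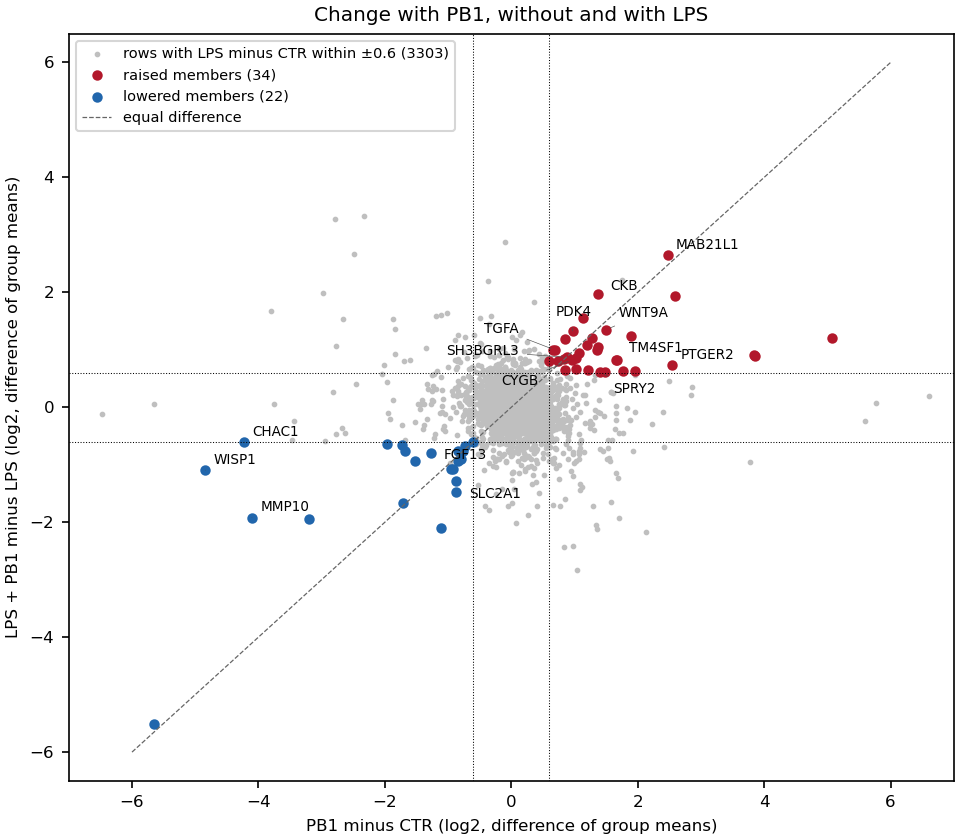
Each point is 1 of the 3303 rows whose LPS minus CTR difference lay within 0.60, with the log2 difference of PB1 from CTR on the x axis and of LPS + PB1 from LPS on the y axis (dotted lines, the 0.60 limits of the rule). The 34 raised members fill the upper right corner and mostly lie below the line of equal difference, and of the 22 lowered members only XM_040677656.2 passes -3 on both axes.

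Among the 34 raised members the median difference from CTR was 1.32 without LPS (range 0.60 to 5.08) and the median difference from LPS was 0.90 with it (range 0.61 to 2.65), beside medians of 0.08 and 0.01 over the 4008 coding rows at the level limit. Among the 22 lowered members the medians were -1.19 (range -5.65 to -0.60) and -0.94 (range -5.51 to -0.61). In bulk RNA, fewer cells of a type and less RNA per cell cannot be told apart. The limma fit over all transcripts called one where its adjusted p did not exceed 0.05 and its fold reached 1.5. It called 33 of 34 raised members higher in PB1 than in CTR, where 12.4% of the 4485 transcripts tested were called higher. All 22 lowered members were called lower, against 9.41% of all transcripts. In LPS + PB1 against LPS, 24 of 33 raised members tested were called higher and 17 of 22 lowered members lower, where the shares over all 4546 transcripts tested were 7.24% and 10.1%. Libraries with the same replicate number deviated together in this comparison, but only 2 of 4 correlated best with their own number. With that number as a block in limma, 31 of 33 raised and all 22 lowered members were called, against 8.64% and 11.9% of all transcripts. These included all of the 24 and 17 called without the block. FGF13 was the 1 member called in LPS against CTR, where 16.7% of 4514 transcripts were called in either direction. The rule used these contrasts, so nothing is read from the members' counts.

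The members were also compared by overlap of their libraries. The 4 PB1 libraries lay wholly above the 4 CTR libraries in 32 of 34 raised members and wholly below in 20 of 22 lowered members, where 25.4% and 16.3% of all transcripts did so. With LPS, 25 of 33 raised members tested and 17 of 22 lowered members had no overlap, where 16.6% and 15.8% of all transcripts did so. When libraries with the same number were compared instead, all 4 differences of LPS + PB1 from LPS lay in the member's direction in 32 of 34 raised and 21 of 22 lowered members, where 29% of all transcripts were higher in all 4 and 28.2% lower. Separation without overlap in both comparisons held in 24 raised and 15 lowered members, and this joint count was not made over all transcripts. Nothing is read from these counts either, since the same values chose the members.

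**Figure D2:**
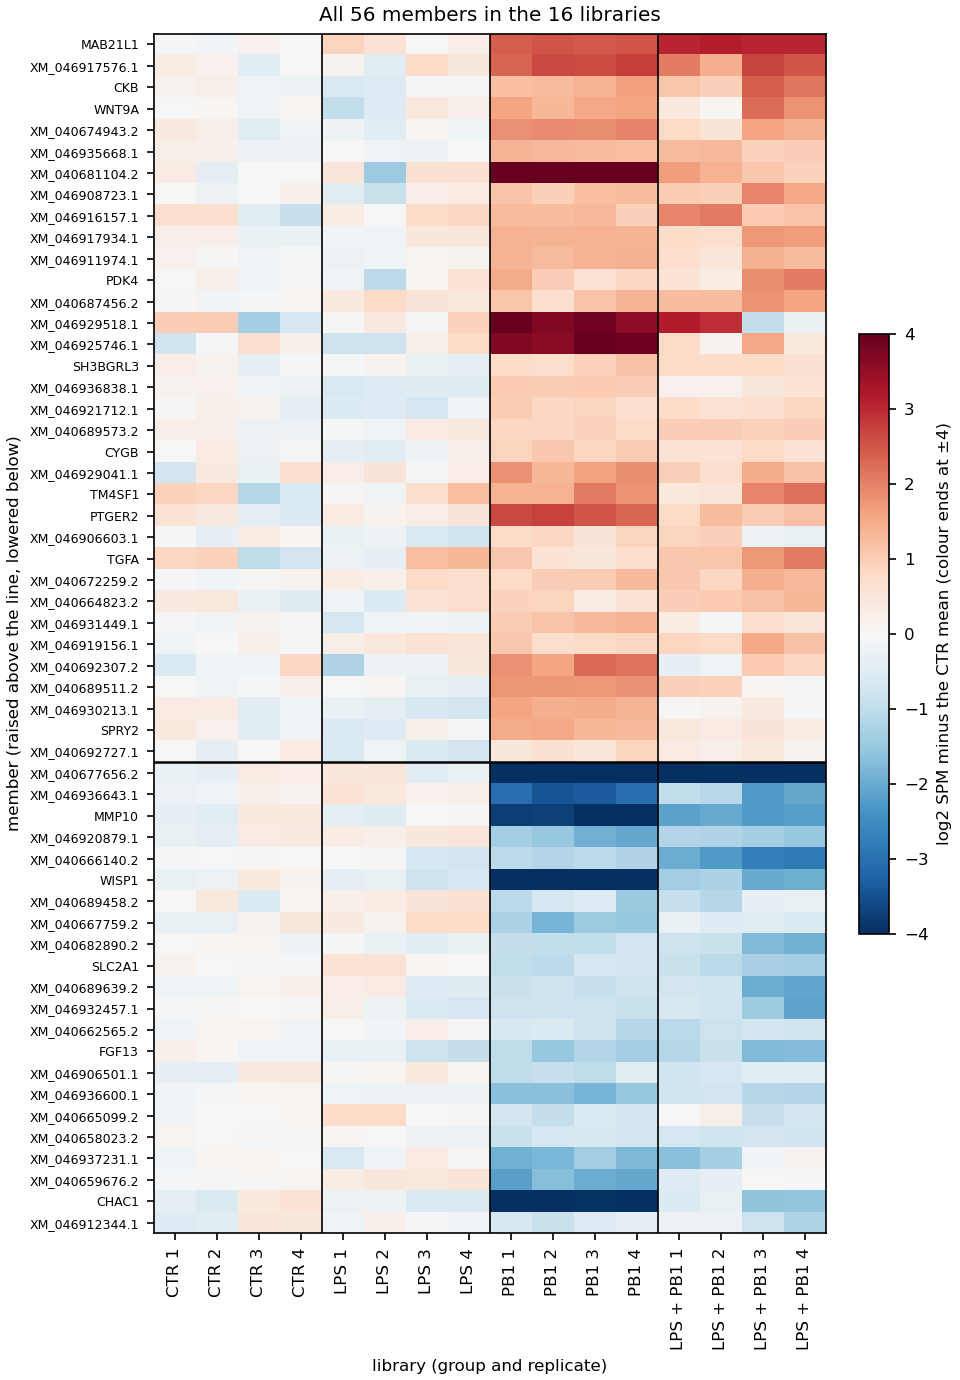
Rows are the 56 members (34 raised above the line, 22 lowered below, each set ordered by the smaller of its PB1 differences) and columns the 16 libraries; colour gives log2 SPM minus the CTR mean. The PB1 columns are even across replicates, whereas the LPS + PB1 columns split between replicates 1 and 2 and replicates 3 and 4 in many rows.

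The median level of the raised members in CTR was 16.9 SPM, against 80.4 for the lowered members and 69.6 over all coding rows at the level limit, and 10 of the 34 were under 10 SPM in CTR. The rule sets part of this, since a raised member could pass the level limit through its PB1 groups alone and a lowered member through the groups without PB1. The highest mean was in PB1 alone for 23 raised members and in LPS + PB1 for 11. The lowest mean of the lowered members was in PB1 alone for 13 and in LPS + PB1 for 9. A gene symbol was matched for 10 raised and 5 lowered members (29.4% and 22.7%, against 30.1% of coding rows at the level limit). These 15 genes lie on 9 chromosomes of the GRCg7b build.

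The raised members with a symbol are given first for ligands, receptors, surface proteins and inhibitors of receptor signalling. WNT9A (chromosome 2, 2603326 to 2656926) is a secreted Wnt ligand known from joint and limb development. In WNT9A, the CTR replicates 1 to 4 held 8.28, 8.78, 7.57 and 8.81 and the PB1 replicates 24.7, 20.9, 24.4 and 25.05 SPM. With LPS, WNT9A stood at 4.18, 5.87, 11.2 and 9.52 in the LPS group and at 10.9, 8.80, 39.5 and 29.3 in the LPS + PB1 group. All PB1 libraries were above all CTR libraries, whereas LPS + PB1 replicates 1 and 2 fell within the range of the LPS group. The difference was 1.51 (SE 0.08) without LPS and 1.35 (SE 0.62) with LPS on the log2 scale. Compared by replicate number, LPS + PB1 exceeded LPS in all 4 numbers, by 0.58 to 1.82. Because libraries split into replicate pairs, here and for the members below these are not 4 independent differences. The rule also chose members on this difference, so the shared direction does not offset the overlap.

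TGFA (chromosome 22, 3444983 to 3460753) encodes a ligand of the EGF receptor and was uneven between replicates. In TGFA, the CTR replicates 1 to 4 held 12.7, 13.3, 3.51 and 4.26 and the PB1 replicates 14.8, 10.4, 9.78 and 11.3 SPM. With LPS, TGFA stood at 6.02, 5.61, 16.4 and 17.7 in the LPS group and at 14.9, 15.3, 23.3 and 29.01 in the LPS + PB1 group. The groups overlapped in both comparisons, because CTR replicates 1 and 2 were about as high as PB1 and LPS replicates 3 and 4 about as high as LPS + PB1 replicates 1 and 2. Its difference of 0.69 (SE 0.52) without LPS is a mean over pairs that disagree, with PB1 minus CTR at -0.06 in replicates 1 and 2 and 1.45 in replicates 3 and 4. With LPS the difference was 1.00 (SE 0.51), and compared by replicate number it was positive in all 4, from 0.51 to 1.45.

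PTGER2 (chromosome 5, 57886644 to 57890428) encodes a receptor for the lipid mediator prostaglandin E2 that signals through cyclic AMP. In PTGER2, the CTR replicates 1 to 4 held 20.5, 18.3, 11.1 and 9.77 and the PB1 replicates 87.7, 94.6, 81.3 and 69.5 SPM. With LPS, PTGER2 stood at 17.9, 15.8, 17.1 and 20.4 in the LPS group and at 24.5, 34.3, 28.5 and 32.04 in the LPS + PB1 group. PB1 libraries stood far above CTR, and the LPS + PB1 libraries stood above LPS without overlap but far below PB1 alone. The geometric mean was 5.83-fold higher without LPS and 1.67-fold higher with it, log2 differences of 2.54 (SE 0.28) and 0.74 (SE 0.13).

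TM4SF1 (chromosome 9, 23583049 to 23588140) encodes a tetraspanin-like surface protein. In TM4SF1, the CTR replicates 1 to 4 held 16.4, 15.6, 3.99 and 5.69 and the PB1 replicates 22.9, 22.8, 36.6 and 30.5 SPM. With LPS, TM4SF1 stood at 9.07, 7.76, 14.3 and 19.98 in the LPS group and at 11.6, 12.1, 34.1 and 40.1 in the LPS + PB1 group. PB1 was above CTR in all libraries, but CTR itself split by replicate number, and LPS + PB1 replicates 1 and 2 lay within the LPS range. The differences were 1.66 (SE 0.54) without LPS and 0.82 (SE 0.57) with LPS. By replicate number TM4SF1 was higher in all 4 with LPS, by 0.36 to 1.26.

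SPRY2 (chromosome 1, 152630538 to 152636591) acts on the other side of such signalling, as a feedback inhibitor downstream of receptor tyrosine kinases. In SPRY2, the CTR replicates 1 to 4 held 71.5, 62.4, 41.2 and 49.9 and the PB1 replicates 153, 159.6, 138 and 135 SPM. With LPS, SPRY2 stood at 37.2, 38.1, 63.1 and 56.7 in the LPS group and at 73.1, 69.2, 79.03 and 68.2 in the LPS + PB1 group. Neither comparison overlapped, although with LPS the lowest LPS + PB1 library exceeded the highest LPS library by a small margin. The difference of 1.41 (SE 0.18) without LPS compared with 0.61 (SE 0.20) with LPS, which put SPRY2 next to the limit of the rule.

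Other raised members act in energy metabolism, bind oxygen or have other roles. CKB (chromosome 5, 49828365 to 49836062), the brain-type creatine kinase that buffers ATP through phosphocreatine, came next. In CKB, the CTR replicates 1 to 4 held 184, 199, 149 and 146 and the PB1 replicates 386, 402, 442 and 526 SPM. With LPS, CKB stood at 109.9, 118, 162 and 158 in the LPS group and at 361, 327, 906 and 720.3 in the LPS + PB1 group. Both comparisons were without overlap, and LPS + PB1 replicates 3 and 4 were far above replicates 1 and 2. The difference was 1.37 (SE 0.15) without LPS and 1.96 (SE 0.39) with LPS.

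PDK4 (chromosome 2, 23808857 to 23818242) encodes a mitochondrial kinase that inhibits pyruvate dehydrogenase and so limits entry of glucose carbon into the citric acid cycle. In PDK4, the CTR replicates 1 to 4 held 6.19, 7.32, 5.66 and 5.93 and the PB1 replicates 17.5, 12.3, 9.30 and 11.1 SPM. With LPS, PDK4 stood at 5.57, 3.01, 6.56 and 9.24 in the LPS group and at 9.04, 7.64, 22.4 and 26.03 in the LPS + PB1 group. PB1 exceeded CTR in all libraries, and LPS + PB1 overlapped LPS through replicates 1 and 2. The differences were 0.97 (SE 0.21) and 1.33 (SE 0.56). By replicate number PDK4 was higher in all 4 with LPS, by 0.70 to 1.77.

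SH3BGRL3 (chromosome 23, 591978 to 593858), a small protein with a thioredoxin-like fold, had means of 1212 ± 209 SPM in CTR, 2224 ± 345 in PB1, 1088 ± 182 in LPS and 1969.9 ± 95.2 in LPS + PB1 (SD, n = 4). Its differences of 0.88 (SE 0.17) and 0.87 (SE 0.12) were nearly equal, with no overlap in either. CYGB (chromosome 18, 4967920 to 4978373), the globin cytoglobin, had means of 17.01 ± 2.91, 32.9 ± 2.38, 14.9 ± 3.11 and 26.03 ± 2.29 SPM in the same order (SD, n = 4). Its differences were 0.96 (SE 0.13) and 0.83 (SE 0.16), also without overlap.

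MAB21L1 (chromosome 1, 173021857 to 173024409), a gene known from eye and neural development, had the largest difference with LPS among the raised members. In MAB21L1, the CTR replicates 1 to 4 held 9.89, 9.71, 11.8 and 10.5 and the PB1 replicates 55.9, 59.6, 57.2 and 59.6 SPM. With LPS, MAB21L1 stood at 19.5, 15.5, 10.3 and 12.5 in the LPS group and at 86.9, 92.2, 87.2 and 86.9 in the LPS + PB1 group. Both PB1 groups were tight and far above their controls, and LPS + PB1 was also above PB1 alone in every library. The geometric mean was 5.56-fold higher without LPS and 6.28-fold higher with it, log2 differences of 2.48 (SE 0.07) and 2.65 (SE 0.20).

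**Figure D3:**
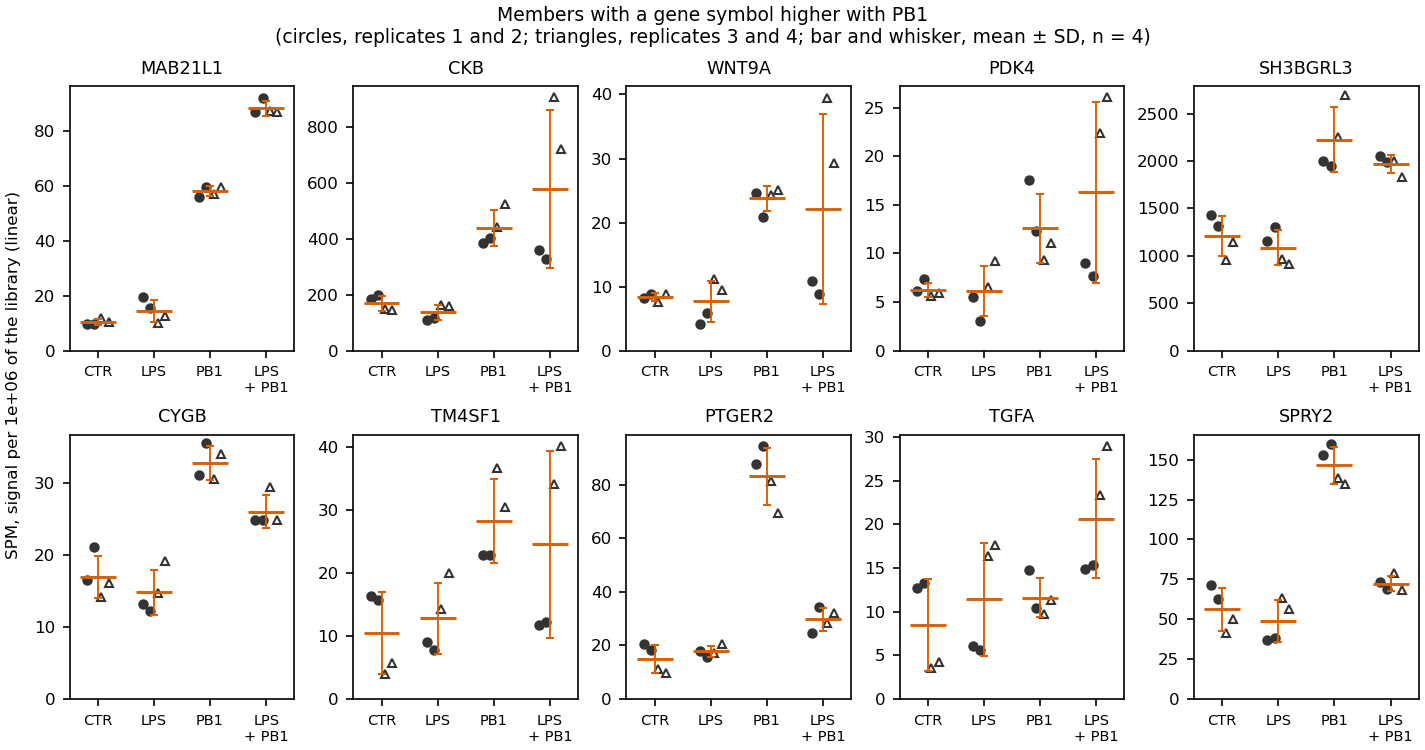
SPM (linear axis from 0) of the 10 raised members with a gene symbol in each library; circles are replicates 1 and 2, triangles replicates 3 and 4, and the bar with whisker is the mean ± SD (n = 4). MAB21L1, SH3BGRL3, CYGB, CKB, PTGER2 and SPRY2 separate in both comparisons. WNT9A, PDK4, TM4SF1 and TGFA overlap in the comparison with LPS. In each of them LPS + PB1 exceeds LPS in all 4 replicate numbers, which are not independent. TGFA also overlaps in the comparison without LPS.

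Lowered members with a symbol include proteins of the extracellular matrix. MMP10 (chromosome 1, 182313478 to 182320112) is a secreted metalloproteinase that cleaves matrix proteins. In MMP10, the CTR replicates 1 to 4 held 213, 194, 348 and 348 and the PB1 replicates 19.4, 20.02, 15.5 and 9.46 SPM. With LPS, MMP10 stood at 205, 189, 265 and 256 in the LPS group and at 60.3, 66.3, 55.6 and 57.6 in the LPS + PB1 group. The groups were wide apart in both comparisons, and LPS + PB1 remained above PB1 alone in every library. The geometric mean was 17.2-fold lower without LPS and 3.78-fold lower with it, log2 differences of -4.10 (SE 0.34) and -1.92 (SE 0.13).

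WISP1 (chromosome 2, 140915425 to 140951088), also called CCN4, is a matricellular protein first known as a Wnt target. In WISP1, the CTR replicates 1 to 4 held 149, 153, 239.9 and 199.7 and the PB1 replicates 5.76, 3.45, 8.83 and 9.22 SPM. With LPS, WISP1 stood at 139, 147, 101 and 111 in the LPS group and at 68.7, 75.1, 45.1 and 47.2 in the LPS + PB1 group. Neither comparison overlapped, and LPS + PB1 stayed far above PB1 alone. The log2 difference was -4.84 (SE 0.37) without LPS and -1.09 (SE 0.23) with LPS. LPS alone was lower than CTR by 0.56, within the limit but without overlap of the libraries.

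SLC2A1 (chromosome 21, 6443561 to 6458116) encodes the glucose transporter GLUT1, a target of HIF1A in mammals. In SLC2A1, the CTR replicates 1 to 4 held 206, 188, 176 and 179.9 and the PB1 replicates 94.6, 90.1, 117 and 110.3 SPM. With LPS, SLC2A1 stood at 272, 281, 198 and 188 in the LPS group and at 100.1, 87.9, 76.4 and 71.7 in the LPS + PB1 group. Every library with PB1 was below every library without it, and the difference was larger with LPS. It was -0.87 (SE 0.10) without LPS and -1.47 (SE 0.19) with LPS.

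CHAC1 (chromosome 5, 23962634 to 23964689) encodes an enzyme that degrades glutathione and is induced by the amino acid and endoplasmic reticulum stress response. In CHAC1, the CTR replicates 1 to 4 held 47.03, 41.03, 81.1 and 93.02 and the PB1 replicates 2.31, 3.91, 4.02 and 3.28 SPM. With LPS, CHAC1 stood at 52.6, 54.1, 41.2 and 41.8 in the LPS group and at 42.1, 50.4, 20.3 and 21.2 in the LPS + PB1 group. Without LPS the groups were wide apart, but with LPS they overlapped, since LPS + PB1 replicates 1 and 2 were close to the LPS libraries. The log2 difference was -4.22 (SE 0.34) without LPS and -0.61 (SE 0.35) with LPS, the smallest with LPS among the lowered members. By replicate number CHAC1 was lower in all 4 with LPS, from -1.02 to -0.10.

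FGF13 (chromosome 4, 4703458 to 4975680) encodes an intracellular member of the fibroblast growth factor family that binds sodium channels. Its mean was 69.7 ± 8.56 SPM in CTR, 29.1 ± 4.23 in PB1, 47.04 ± 11.6 in LPS and 27.5 ± 8.25 in LPS + PB1 (SD, n = 4). The differences were -1.26 (SE 0.14) without LPS, without overlap, and -0.79 (SE 0.28) with LPS, where the highest LPS + PB1 library exceeded the lowest LPS library. By replicate number FGF13 was lower in all 4 with LPS, from -0.90 to -0.65. LPS alone was at -0.59, next to the limit of the rule and without overlap with CTR.

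**Figure D4:**
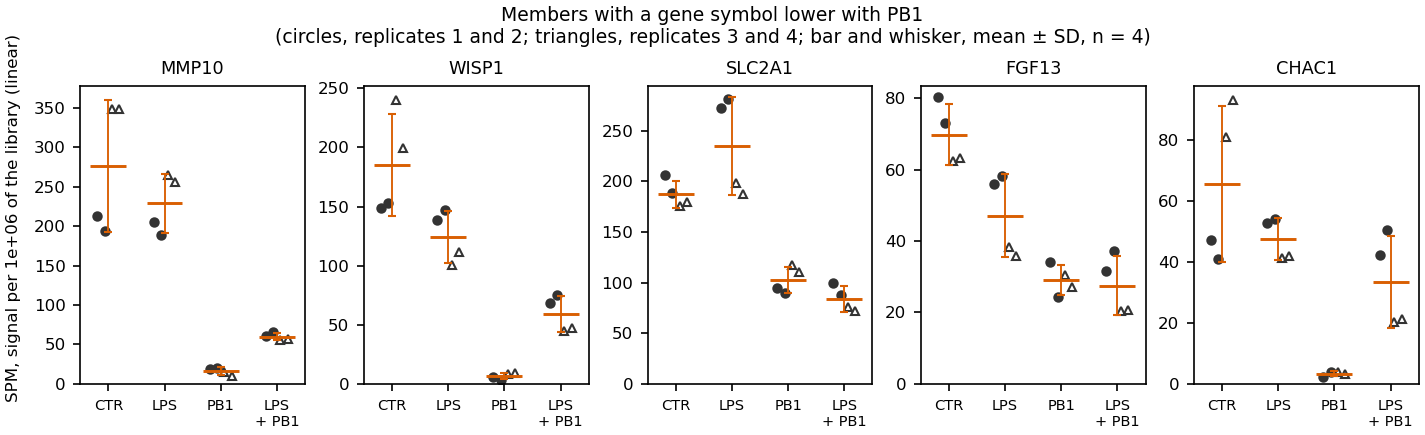
SPM (linear axis from 0) of the 5 lowered members with a gene symbol in each library; circles are replicates 1 and 2, triangles replicates 3 and 4, and the bar with whisker is the mean ± SD (n = 4). MMP10, WISP1 and CHAC1 are lowest in PB1 and higher in LPS + PB1, whereas SLC2A1 and FGF13 reach similar levels in both.

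The other 24 raised and 17 lowered members have predicted accessions without a symbol in the tables used here. The lowered XM_040677656.2 had the largest difference of all members in both settings. In XM_040677656.2, the CTR replicates 1 to 4 held 110.2, 107, 165 and 159 and the PB1 replicates 2.06, 2.78, 2.60 and 3.28 SPM. With LPS, XM_040677656.2 stood at 183, 187, 99.2 and 108 in the LPS group and at 3.94, 5.16, 2.32 and 1.83 in the LPS + PB1 group. No PB1 library of either kind exceeded 22 recovered reads, and the 2 comparisons gave -5.65 (SE 0.22) and -5.51 (SE 0.42), 50.2-fold and 45.4-fold lower. The next lowered transcript, XM_046936643.1, had means of 92.1 ± 13.1 and 9.98 ± 1.47 without LPS and of 117 ± 15.1 and 32.4 ± 13.8 with it (SD, n = 4).

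Among raised transcripts without a symbol, XM_046917576.1 and XM_040674943.2 led. XM_046917576.1 rested on few reads, at most 13 per library without PB1 and 53 with it, and its means were 1.91 ± 0.410 in CTR, 11.3 ± 1.36 in PB1, 2.31 ± 0.790 in LPS and 8.93 ± 3.13 in LPS + PB1 (SD, n = 4). XM_040674943.2 had 17.03 ± 4.22, 61.6 ± 2.75, 14.8 ± 2.09 and 36.5 ± 12.4 SPM in the same order. The highest level among the raised members was in XM_046935668.1, at 1669 ± 290.1 in CTR, 3999 ± 193 in PB1, 1543 ± 112 in LPS and 3592 ± 468 in LPS + PB1 (SD, n = 4; chosen after its values were seen).

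Direction was alike in the members by the rule, but size often was not. The difference with LPS and the difference without it lay within 0.60 of each other in 22 of 34 raised and 13 of 22 lowered members. In all 12 raised members with a wider gap, and in 7 of 9 such lowered members, the difference was larger without LPS. WISP1, CHAC1 and MMP10 had the wide gaps among the named lowered genes, and PTGER2, TM4SF1 and SPRY2 among the named raised genes. MAB21L1, SH3BGRL3, CYGB, WNT9A and XM_040677656.2 had gaps of at most 0.18 in either direction. The standard error of the gap was 0.21, 0.21, 0.20, 0.63 and 0.48 in that order, so these small gaps do not show equal differences. SLC2A1 and CKB had a larger difference with LPS, by 0.60 (just past that range) and 0.59. The gap is a combination of the differences that chose the members, so it was not tested.

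The replicate pairs gave the same direction for most members but seldom the whole rule. Sign was the same in both pairs and both PB1 comparisons in 32 raised and 22 lowered members. The exceptions were TGFA and XM_046929518.1, whose LPS + PB1 libraries held 19.8, 16.9, 1.12 and 1.83 SPM. Both PB1 differences passed 0.60 in both pairs in 17 raised and 16 lowered members. The libraries of both pairs entered the means that chose the members, so the rule sets part of this agreement. It was not counted over all rows, and nothing is read from it. Of the members with a symbol, TM4SF1 fell short in replicates 1 and 2, at 0.51 without LPS and 0.50 with it. Without LPS, TGFA (-0.06) and SH3BGRL3 (0.52) fell short in replicates 1 and 2. With LPS, CHAC1 fell short in replicates 1 and 2 (-0.21) and SPRY2 in replicates 3 and 4 (0.30). The pairs within LPS + PB1 lay more than 0.60 apart in 15 raised and 13 lowered members, against 14 and 6 within LPS, 9 and 5 within CTR and 0 and 2 within PB1. Over all coding rows at the level limit those shares were 16.3%, 12.3%, 5.66% and 1.95% in the same order of groups.

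The mean difference of LPS from CTR, held within 0.60 by the rule, varied between the pairs. It stayed within 0.60 in both pairs in 12 of 34 raised members (35.3%) and 11 of 22 lowered members (50%), against 84.8% of the 3303 rows within that limit. In 4 raised members and 1 lowered member the pairs passed 0.60 in opposite directions, so that values of opposite sign partly cancelled in the mean. In TGFA, LPS minus CTR was -1.16 in replicates 1 and 2 and 2.14 in replicates 3 and 4. In TM4SF1 it was -0.93 and 1.83. In XM_040677656.2 it was 0.77 and -0.65, small beside its PB1 differences.

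Applied to replicates 1 and 2 alone, the rule gave 23 raised and 27 lowered rows, and 13 and 14 of these were members. Applied to replicates 3 and 4 alone it gave 32 and 32 rows, of which 18 and 11 were members. Both pairs shared 4 raised rows (17.4% and 12.5% of the lists), which were CYGB, XM_046935668.1, XM_046908723.1 and XM_046911974.1. They shared 6 lowered rows (22.2% and 18.8%), which included MMP10 and SLC2A1. With each library left out in turn, 19 raised and 13 lowered members met the rule all 16 times. What sets the pairs apart was not tested, because neither the labels nor the methods name a batch.

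**Figure D5:**
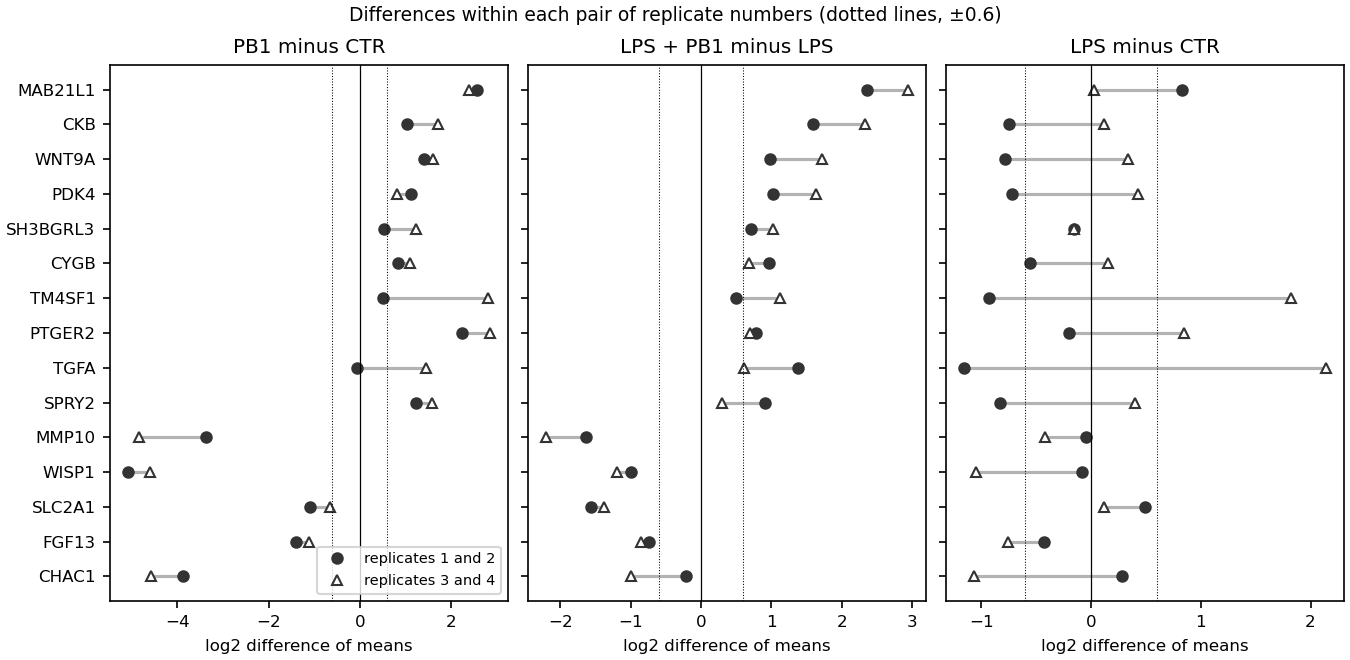
Log2 differences of the 15 members with a symbol in replicates 1 and 2 (circles) and replicates 3 and 4 (triangles), for PB1 minus CTR, LPS + PB1 minus LPS and LPS minus CTR (dotted lines, ±0.60). The PB1 differences keep their sign in both pairs in all but TGFA, whereas LPS minus CTR changes sign in TGFA, TM4SF1 and several others.

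The limit of 0.60 cut through a continuous range. Just inside it on the raised side were XM_040692727.1, at 0.60 without LPS and 0.80 with it, and SPRY2. Just outside were XM_046931403.1 at 0.60 and 0.67 and XM_040690270.2 at 0.60 and 0.70, both below the limit before rounding. On the lowered side XM_046912344.1 (-0.60 and -0.61) and CHAC1 were inside. ROR2, a receptor tyrosine kinase for Wnt ligands, was outside at -3.47 without LPS and -0.58 with it, and NFKBIZ, a nuclear regulator of NF-kB target genes, at -2.95 and -0.59.

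Pathway lists were read to place the named members. The limma p-values given for list genes take the 4 libraries of a group as independent, although libraries split by replicate pair. With each pair as 1 sample, 144 of 787 calls were left in LPS + PB1 against LPS, with fewer samples in the fit. Of 76 matrix and matrix remodelling genes, 21 were in the table, with MMP10 and WISP1 as the members. In PB1 against CTR, 2 of 19 tested were called higher and 12 lower by limma, with a list median of -0.93 beside 0.08 over all transcripts tested. In LPS + PB1 against LPS, 2 of 19 were called higher and 6 lower, with medians of -0.20 and -0.01, and the replicate block gave 3 and 7, adding TGFBI and LUM. The genes that the block added to this and the other lists are named after their values were seen. The collagen COL3A1, no member because LPS alone was 0.79 higher, was called lower in both (-1.80 and -1.08, limma adjusted p = 2.13e-07 and 0.00124). Its CTR libraries held 5742, 5652, 8192 and 7717 SPM and its LPS libraries 14305, 13839, 9671 and 9564. The 0.79 was thus uneven between replicate pairs, although all LPS libraries were above all CTR libraries.

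The list of HIF1A targets and glycolysis had 12 of 55 genes in the table, with SLC2A1 and PDK4 as members. PB1 against CTR gave 2 higher and 3 lower of 12 tested (median -0.24), and LPS + PB1 against LPS 2 higher and 2 lower (median -0.03). The replicate block added PDK4 to those higher with LPS. The repressor gene BHLHE40 was called lower in both (-2.57 and -0.84, limma adjusted p = 1.09e-06 and 0.00549), but was 1.78 higher with LPS alone. Members of this list therefore lay on both sides, since the transporter SLC2A1 was lowered and the kinase PDK4 raised.

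Growth factor and morphogen genes numbered 34 of 125 in the table, with SPRY2 and FGF13 as members. The list does not hold the ligand genes WNT9A and TGFA, which are members too. PB1 against CTR gave 5 higher and 6 lower of 19 tested (median -0.26), and LPS + PB1 against LPS 3 higher and 4 lower of 21 (median -0.44), or 4 and 5 with the replicate block, which added HBEGF and INHBA. Of 51 genes of endoplasmic reticulum stress and the amino acid response, 5 were in the table. CHAC1 was the 1 called lower without LPS, and HSPA2, a chaperone gene named after its values were seen, the 1 called higher with LPS (1.83, limma adjusted p = 2.57e-05). The replicate block also called CHAC1 lower and HSPB1 higher with LPS.

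The remaining 8 lists held no member. Of HOX and developmental transcription factors, 6 of 24 tested were called higher and 11 lower in PB1 against CTR, and 6 and 3 of 21 in LPS + PB1 against LPS. HOXA11, which patterns the limb, was called higher in both (1.25 and 2.05) and ID4, an inhibitor of helix-loop-helix factors, lower in both (-3.31 and -4.39), with limma adjusted p = 8.36e-06 and 5.3e-05 for HOXA11 and 1.04e-07 and 1.11e-06 for ID4. LPS alone had moved both, by -0.89 and 3.17, which kept them out. FOXC2 was called higher in both as well (0.82 and 3.21, limma adjusted p = 0.0199 and 4.85e-06), with LPS alone at -1.46. Without LPS its groups overlapped, because CTR split by replicate pair. FOXC2 stood at 31.1, 24.2, 12.04 and 14.3 SPM in CTR and at 33.7, 30.97, 31.5 and 38.6 in PB1.

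Adhesion and cytoskeleton genes gave 3 higher and 5 lower of 19 tested without LPS and 3 and 5 of 18 with LPS. The cadherin CDH4 was lower in both (-1.45 and -1.05, limma adjusted p = 8e-05 and 0.0497). CDH4 itself split by replicate pair, at 32.1, 30.4, 67.1 and 58.3 SPM in LPS and 15.4, 14.7, 31.1 and 29.7 in LPS + PB1. Cholesterol and lipid genes gave 3 lower of 8 without LPS, and 1 higher and 2 lower of 8 with LPS. PPARG, a nuclear receptor of lipid metabolism, was lower in both (-1.94 and -1.15, limma adjusted p = 5.36e-06 and 5.81e-05). LPS alone was at 0.63 for PPARG and -0.82 for CDH4, past the limit of the rule for each. Inflammatory cytokine and NF-kB genes gave 2 higher and 1 lower of 7, then 1 and 1 of 7, with NFKBIZ lower in both (limma adjusted p = 2.21e-06 and 0.0201).

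The genes of the last 4 lists are named after their values were seen. Interferon and STAT genes gave 1 higher of 4 without LPS, the double-stranded RNA sensor TLR3 (0.86). With LPS, 2 of 4 were lower, TLR3 (-1.47) and the cytosolic RNA sensor IFIH1 (-2.51). Cell cycle genes gave 1 lower of 17, the cyclin CCNE1 (-0.82), and then 1 higher of 17, the kinase CDK6 (0.62), to which the replicate block added CDC20 (0.60). Iron and heme genes gave 1 higher of 3, the iron exporter SLC40A1 (0.90), which edgeR and DESeq2 did not call, and then the same gene lower of 4 tested (-2.69). NFE2L2 targets and antioxidant enzymes gave VNN2 higher (6.60) and the peroxiredoxin PRDX6 lower (-0.83) of 10 without LPS. With LPS, limma, edgeR and DESeq2 called 0 of 9, and 3 had an unadjusted p under 0.05. Most genes of every list were not among the named rows, so these counts describe the rows present and not the pathways.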

How the data were processed

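RNA from 16 HD11 libraries (CTR, LPS, PB1 and LPS + PB1, 4 each) was analysed from 1 table of 6492 RefSeq accessions. Per the methods and the submitters' processing notes, the authors used HISAT2 for alignment to GRCg7b and HTSeq for counting. The deposited values are a signal and not counts: in each library at least 99.97% equalled a whole number of reads plus 1, times a step between 2.97 and 5.53, rounded down. How the authors made this scaling is not given in the sources used here. Reads were recovered by dividing by the step (4173989 to 4414942 per library), so that 1 read was worth 0.226 to 0.239 SPM and limits on reads cover counting error only. Symbols came by accession from the GRCg7b RefSeq table, for 1677 of 1682 NM_, 0 of 4221 XM_, 20 of 20 NR_ and 0 of 569 XR_ rows, so a gene may have further rows without a name.

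SPM was each value divided by its column sum, times 1e+06. SE is the standard error of a difference of group means of log2 SPM. Background shares came from limma 3.58.1 (trend) on log2 SPM of the groups compared, after filterByExpr on recovered reads (minimum count 10), with Benjamini-Hochberg adjustment over all transcripts tested. Fits were tested on simulated data. The members, and the pathway and marker lists, were chosen with earlier results of these data known. Named were the 10 members with a symbol in each direction with the largest smaller PB1 difference (all that have one), 2 without a symbol in each direction, the nearest rows to the 0.6 limit, and list genes called in the same direction in both PB1 comparisons; further genes are marked as named after their values were seen. CCN4 was matched to WISP1 by hand. A result of the macrophage marker list is not reported here. Alternatives were TMM, edgeR 4.0.16 and DESeq2 1.42.0 on recovered reads, no filter, a further 1 SPM, the replicate block, all 16 libraries in 1 fit, means of replicate pairs, other limits, and each library left out. R 4.3.3 and Python 3.11.15 were used.

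Replicate numbers come from the labels. In LPS + PB1 against LPS, same-numbered libraries deviated together (correlations 0.49 to 0.60 over transcripts). Only 2 of the 4 LPS + PB1 libraries correlated best with the LPS library of their own number. Pairing by number therefore cannot be told apart from the split of replicates 1 and 2 from replicates 3 and 4. Values by replicate number and with the block are given as a description under that limit. The fit, the SE and the overlap counts are unpaired unless a value is given by replicate number or with the block. Calls with the block are counted for the members, and a changed call is named only for genes of the pathway lists. In PB1 against CTR the correlations were 0.03 to 0.36 and in LPS against CTR -0.21 to -0.06. No sequence was used, and coordinates are those of the GRCg7b gene table.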

Additional observations from a re-analysis of the deposited data

Results flagged for a closer look

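In 76 sets of 4 libraries (19 named members in 4 groups), 3 had 1 library far from the other 3, where chance gives about 1 in 20. MAB21L1 stood at 92.2 SPM in LPS + PB1 replicate 2, with the others between 86.9 and 87.2. WNT9A stood at 20.9 SPM in PB1 replicate 2, with the others between 24.4 and 25.0. CYGB stood at 29.5 SPM in LPS + PB1 replicate 3, with the others at 24.9.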

How the results depend on the processing

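With a limit of 0.8 for the PB1 differences, 22 raised and 13 lowered members were left. Other scalings, levels and limits gave 28 to 42 raised and 19 to 28 lowered rows, and leaving out 1 library gave 28 to 41 and 20 to 29. Of 418 recomputed PB1 differences of named members, 396 moved by less than the spread of the libraries and 1 changed sign, TGFA in PB1 against CTR at -0.062 in replicates 1 and 2. The other 21 were differences within 1 pair of replicates. Leaving out 1 of 4 libraries cannot move a difference by the spread of the libraries, so such values were among the 396 in advance. Taking each pair of replicates as 1 sample left 408 calls for LPS relative to CTR (754 with 8 libraries) and 144 for LPS + PB1 relative to LPS (787), with fewer samples in the fit. PB1 relative to CTR gave 915 (977). With replicates 3 and 4 only, chosen after seeing the data, LPS against CTR gave 1236 calls; the cause was not tested. The replicate block gave 704 calls for LPS, 983 for PB1 without LPS and 933 for PB1 with LPS, each within 1.5 times the unblocked count. In the lists it added at most 1 call per direction with LPS and changed none without LPS. Leaving out 1 library gave 684 to 848, 959 to 1028 and 705 to 792 calls. Depth limits several raised members, among them XM_046917576.1, whose libraries without PB1 held at most 13 reads. The largest raised difference without LPS, 5.08, rested on at most 9 reads per CTR library (looked up after its values were seen).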

Other observations

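The rule was limited to coding accessions. Of 589 noncoding rows (NR_ and XR_), 226 reached the level limit, and 3 raised and 5 lowered rows met the same numeric limits, a selection made after seeing the data. The raised NR_173998.1, a noncoding transcript of SMAD6 (an inhibitor of bone morphogenetic protein signalling), differed by 0.73 without LPS and 1.18 with LPS. Among the lowered rows, XR_005852151.2 was at -2.52 and -3.19, and XR_005854689.2 at -1.28 and -1.26, which are nearly equal in both settings. These rows were chosen by the values given, so they carry no test.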
